A study of Mus musculus with 6 samples.

Results

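The genes for the proteins of the cytosolic ribosome were followed in infarcted mouse hearts. A gene was a member when its array symbol starts with Rpl or Rps and a digit, or is Rplp0, Rplp1, Rplp2 or Rpsa, with S6 kinase genes and pseudogenes left out. The rule found 68 genes, 1 array feature each, among 22206 features. They are 22 small subunit proteins, 33 large subunit proteins, 10 paralogs (Rpl3l, Rpl7l1, Rpl10l, Rpl22l1, Rpl36al, Rpl37rt, Rpl39l, Rps4l, Rps27l and Rps27rt) and 3 genes that match by name (Rpl32l, Rps19bp1 and Rps23rg1). Rps19bp1 encodes a protein that binds Rps19 and is not itself a ribosomal protein. Of 80 proteins of the standard ribosome, 56 were measured, 55 as members and Fau under its own name. A mean signal above the lowest 30 percent of all features (3.65 on the log2 scale) was seen for 67 members, and the testis-type paralog Rpl39l was below it. Copies that are nearly identical in sequence, such as Rps27rt, Rpl37rt, Rpl32l, Rpl10l, Rpl36a and Rpl36al, may share hybridised RNA with their relatives, so their values are uncertain.

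RNA from whole hearts of 6 male mice was measured on Clariom S mouse arrays, 1 heart per array. The mice, 8 weeks old per the labels, had the left coronary artery tied to cause a myocardial infarction, and those with a well-kept ejection fraction at 2 days had been taken out. The hearts formed 3 groups of 2, and the series design calls the 2 hearts of a group independent biological replicates. The group 8W-Ctrl has the genotype Tcf21iCre/Tomato and was collected 2 months after infarction, and 12W-Ctrl has the same genotype and was collected at 3 months. The group 12W-TTg, genotype Tcf21iCre/Tomato/MGTH2A, was also collected at 3 months. All 3 groups thus carry the Cre, which is driven from Tcf21, a gene of cardiac fibroblasts, and the Tomato reporter. The labels give MGTH2A by name alone, and it is read here, from general knowledge of such mice, as a cassette that encodes Mef2c, Gata4, Hand2 and Tbx5, transcription factors of the developing heart. On that reading it acts in the Cre-marked lineage, while the arrays measured the whole heart. No group without infarction or without Cre was used here.

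Each cytosolic ribosome joins a small subunit, which reads the mRNA, to a large subunit, which forms the peptide bond. Its proteins, most of them needed in equal amounts, are made from genes on many chromosomes, and their mRNAs belong to the TOP class. A TOP mRNA begins with a C and a run of pyrimidines, through which mTORC1 signalling controls its translation. In striated muscle the paralog Rpl3l takes the place of Rpl3 in part of the ribosomes, and heart growth and scar formation are both known for raised ribosome production.

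The 12 cardiomyocyte markers had array means between 18.19 and 18.57 over the 6 arrays. These lie near the top of the scale, whose highest value was 19.93, so they say little about changes in cardiomyocyte content. Replicates correlated across all features at 0.984 to 0.989. Tbx5 lay at 10.72 and 9.31 in 12W-TTg and at 6.42 to 7.98 on the control arrays, and Mef2c lay at 15.93 and 13.94 against 12.07 to 12.87. Hand2 lay at 9.40 and 8.13 against 7.03 to 8.01, and Gata4 at 14.05 and 13.43 against 12.80 to 13.75, so Gata4 overlapped with the controls. The features for these factors do not separate the cassette from the endogenous genes. None of the 4 passed limma's test in 12W-TTg against 12W-Ctrl (adjusted p = 0.646 for Tbx5, 0.650 for Mef2c, 0.678 for Hand2 and 0.897 for Gata4). No ribosomal protein gene reached 19 or more, near the top of the scale, where 35 to 41 features of each array lie. Member values ran from 2.72 for Rpl39l to 18.72 for Rps23. A difference below is one group's mean log2 signal minus another's, with its SE as estimated by limma (n = 2 hearts a side), and so few arrays limit its precision.

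The array of 8W-Ctrl replicate 1 stood apart in the ribosomal protein genes. Over the 68 members, the median log2 signal was 14.21 there and 13.19 in 8W-Ctrl replicate 2. It was 13.10 and 12.66 in 12W-Ctrl, and 12.54 and 12.38 in 12W-TTg. The order of the medians thus runs from 8W-Ctrl through 12W-Ctrl to 12W-TTg, with 8W-Ctrl replicate 2 and 12W-Ctrl replicate 1 nearly level. For 64 members (94.1%) the highest of the 6 values was on 8W-Ctrl replicate 1, which held the highest value of 19.1% of all features. The lowest value was on 12W-TTg replicate 2 for 41 members (60.3%), against 16.5% of all features. Between the replicates of 8W-Ctrl the members differed by a median of 0.895, with replicate 1 higher for 66 of 68, and the median over all features was −0.03. The same replicate distance was 0.195 in 12W-Ctrl and 0.15 in 12W-TTg.

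Markers of other cell types also differed between the arrays, in orders that were not all alike. The 7 skeletal muscle markers averaged 8.34 on 8W-Ctrl replicate 1 and 5.49 to 5.68 on the other 5 arrays, and Myh2, a fast skeletal myosin, was at 10.51 there and at 3.31 to 3.81 elsewhere. Over 9 measured fibroblast markers the array means were 13.42 and 11.71 in 8W-Ctrl, 13.35 and 12.39 in 12W-Ctrl, and 11.96 and 10.74 in 12W-TTg. Over 9 macrophage markers they were 10.10 and 9.21, 10.51 and 8.94, and 8.45 and 7.75. The array of 12W-Ctrl replicate 1 was thus about as high as 8W-Ctrl replicate 1 in fibroblast and macrophage markers, while its ribosomal protein median was 13.10 against 14.21. The part of these cell types in the ribosomal protein values was not tested. In RNA of a whole heart, fewer cells of a type and less RNA per cell cannot be told apart.

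**Figure D1:**
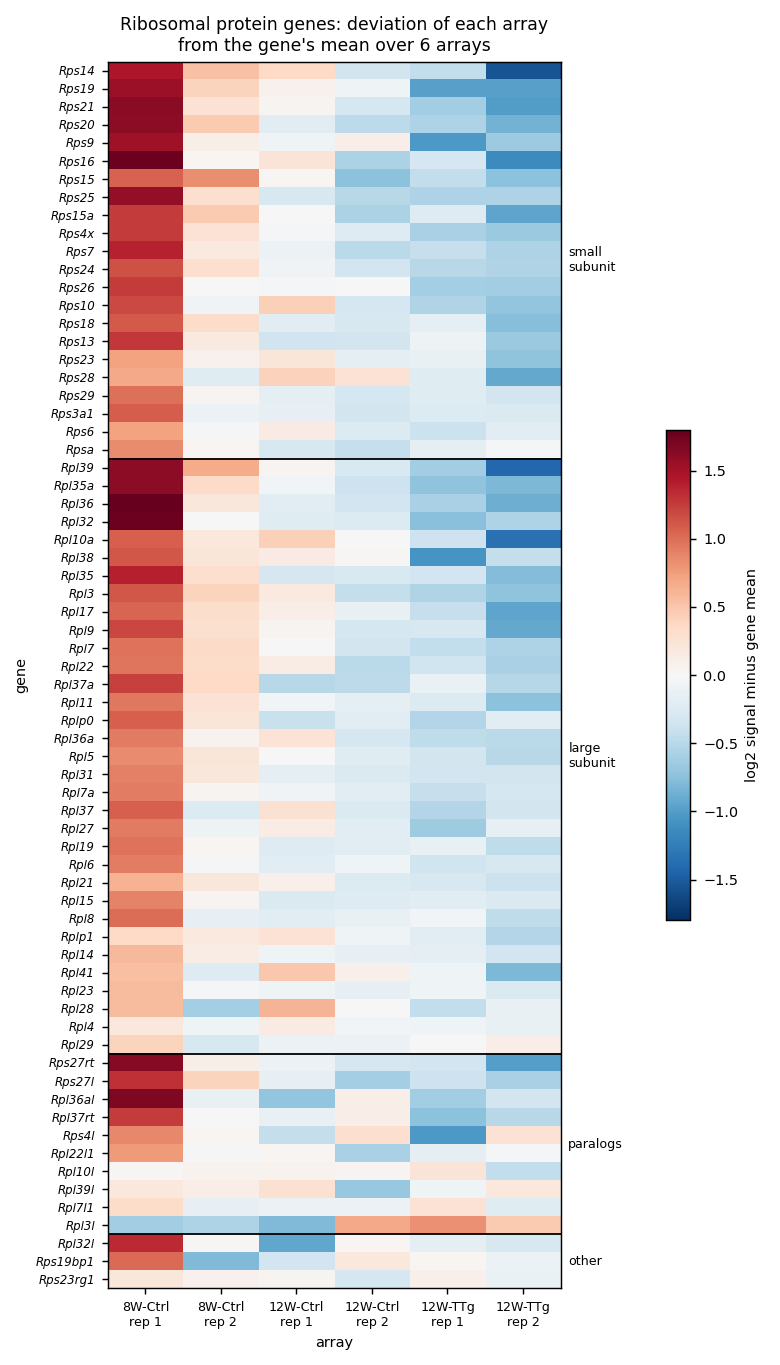
The colours show, for the 68 genes (rows) and 6 arrays (columns), the log2 signal minus the gene's mean over the arrays, with rows ordered in each class by the difference of 12W-TTg from 8W-Ctrl. The column of 8W-Ctrl replicate 1 is red for nearly all genes, and Rpl3l, the last paralog row, runs the other way.

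Some starts of these genes are shown because a TOP mRNA is defined by its first bases. RefSeq promoters (assembly GRCm38.p6, 250 bases before the start to 50 after it) were found for 55 of the 68 members. Within 15 bases of the annotated start, 20 of the 55 (36.4%) had a run of at least 8 bases on the gene's strand that opens with C and goes on with C or T. Of all 27025 genes with such a sequence, 9.09% had one. The 6 longest runs are printed below as 30 bases, 15 before the start and 15 from it, with the run in capitals, beside the stretch of Rpl3l, whose longest run in this window has 5 bases. The stretches lie at chr2:26910792-26910821 (plus strand, Rpl7a), chr2:39005117-39005146 (minus, Rpl35), chr14:18270972-18271001 (minus, Rpl15), chr9:120571502-120571531 (plus, Rpl14), chr17:27635230-27635259 (minus, Rps10), chr17:33955651-33955680 (minus, Rps18) and chr17:24727811-24727840 (plus, Rpl3l).
Rpl7a: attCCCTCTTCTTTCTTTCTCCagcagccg
Rpl35: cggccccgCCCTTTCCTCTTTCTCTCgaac
Rpl15: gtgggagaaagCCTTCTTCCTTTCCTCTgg
Rpl14: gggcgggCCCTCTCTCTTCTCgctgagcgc
Rps10: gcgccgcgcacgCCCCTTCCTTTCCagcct
Rps18: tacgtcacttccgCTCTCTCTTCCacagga
Rpl3l: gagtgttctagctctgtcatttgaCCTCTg

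Other motifs were counted over the whole promoter sequences, 250 bases before the start to 50 after it. The letters CCGGAA (or TTCCGG on the other strand), the core that ETS factors are known to bind, occurred in 25 of the 55 (45.5%). Of all promoters, 15.2% had them. GGGCGG, the core of a GC box, was in 30 (54.5%) against 35.9%. AAGATGG, the core of the YY1 motif, was in 7 (12.7%) against 6.48%. CACGTG, the E-box of Myc, was in 3 (5.45%) against 7.24%, and TATAAA in 6 (10.9%) against 14.2%. Each motif was read on both strands, and none of them contains another. Printed here are the 100 bases before the start of Rps21 (chr2:180257279-180257378, plus strand), Rps25 (chr9:44407614-44407713, plus) and Rpl38 (chr11:114668480-114668579, plus), with the CCGGAA nearest the start in capitals. These 3 had the lowest differences of 12W-TTg from 8W-Ctrl among members with CCGGAA in that stretch.
Rps21: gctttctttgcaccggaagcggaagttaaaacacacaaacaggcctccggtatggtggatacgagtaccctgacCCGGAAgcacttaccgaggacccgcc
Rps25: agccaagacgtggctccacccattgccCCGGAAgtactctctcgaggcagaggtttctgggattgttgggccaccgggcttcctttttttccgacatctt
Rpl38: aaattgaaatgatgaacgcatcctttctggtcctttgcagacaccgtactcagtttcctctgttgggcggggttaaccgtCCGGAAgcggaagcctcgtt
The median difference of 12W-TTg from 8W-Ctrl was −1.05 for the genes with the pyrimidine run and −1.0 for those without it. For genes with and without CCGGAA it was −0.89 and −1.05, for GGGCGG −0.93 and −1.105, and for TATAAA −0.94 and −1.095. The gaps were wider for AAGATGG (−1.26 with it in 7 genes, −0.96 without) and CACGTG (−0.615 with it in 3 genes, −1.09 without). None of these gaps was tested.

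The comparison of 12W-TTg with 12W-Ctrl asks what the cassette changed at 3 months. The ribosomal protein genes had a median difference of −0.30, against 0.01 over all features. Of the 68 means, 57 were lower in 12W-TTg and 11 higher, while 48.3% of all features were lower, and 2 members (Rpl10a and Rps14) were at least 2-fold lower, near the 2.88% of all features. The medians were −0.34 for the small and −0.34 for the large subunit proteins, and −0.13 for the paralogs. Both 12W-TTg arrays lay below both 12W-Ctrl arrays for 36 members (52.9%) against 19.3% of all features, and above them for 2, Rpl29 and Rpsa, against 19.1%. In limma 0 of 68 passed at an adjusted p under 0.05, as 0.0045% of features did, and 3 were lower at an unadjusted p under 0.05, near the 4.11% of all features, and 0 were higher (3.35% of features). An unadjusted p under 0.05 with at least 2-fold was reached by 1, Rpl10a, against 3% of features. The 3 lower genes were Rps19 (−0.98 ± 0.37, adjusted p = 0.661), Rpl10a (−1.08 ± 0.42, adjusted p = 0.661) and Rps28 (−0.90 ± 0.38, adjusted p = 0.665). With the replicate number as a block 7 were lower at an unadjusted p under 0.05, and the share of all features in that fit is not given here. The median difference was −0.18 without 12W-Ctrl replicate 1 and −0.44 without 12W-Ctrl replicate 2. It was −0.36 without 12W-TTg replicate 1 and −0.20 without 12W-TTg replicate 2.

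Comparing 12W-Ctrl with 8W-Ctrl addresses time after infarction in hearts without the cassette. The median difference was −0.72 (all features 0.01), a 1.65-fold lower signal at 3 months. It was −0.95 in the small subunit and −0.65 in the large subunit. Means were lower at 3 months for 63 members (48.8% of all features), and both 12W-Ctrl arrays lay below both 8W-Ctrl arrays for 41 (17.4% of features) and above them for 0 (18.3% of features). None of the 68 passed limma's adjusted threshold, where 0.0045% of features did. At an unadjusted p under 0.05, 23 were lower, 12 of the 22 small subunit genes among them, against 4.09% of features, and 0 were higher, against 3.91%. They were Rps13, Rps15, Rps15a, Rps18, Rps19, Rps20, Rps21, Rps24, Rps25, Rps4x, Rps7 and Rpsa in the small subunit, Rpl22, Rpl3, Rpl31, Rpl35, Rpl35a, Rpl36, Rpl37a, Rpl39, Rpl7 and Rplp0 in the large subunit, and the paralog Rps27l. At least 2-fold lower were 18 members, against 1.84% of features, and 13 of them also had an unadjusted p under 0.05, against 2.76% of features in either direction. This comparison rests on 8W-Ctrl replicate 1 in large part. Without it the median was −0.27 and the mean was lower for 56 members (50.3% of features), 4 members were lower at an unadjusted p under 0.05 (3.25% of features) and 1 was at least 2-fold lower (1.89%). Both 12W-Ctrl arrays lay below the remaining 8W-Ctrl array for 41 members, against 34.3% of features. The median difference was −1.17 without 8W-Ctrl replicate 2, −0.80 without 12W-Ctrl replicate 1 and −0.65 without 12W-Ctrl replicate 2.

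The widest distance lay between 12W-TTg and 8W-Ctrl, which differ in both the cassette and the time, so that cassette and time cannot be told apart. The 68 genes had a median difference of −1.05 (all features 0.02), a 2.06-fold lower signal in 12W-TTg. The mean was lower for 67 (47.3% of features) and higher for Rpl3l, and both 12W-TTg arrays lay below both 8W-Ctrl arrays for 55 (80.9%) against 18.9% of features. That held for 21 of 22 small subunit, 29 of 33 large subunit and 4 of 10 paralog genes. None passed limma's adjusted threshold, and neither did any of the 22206 features (0%). At an unadjusted p under 0.05, 42 were lower (5.41% of features) and Rpl3l was higher (4.3%). Of the 22 small subunit genes the 5 that did not reach it were Rps28, Rps29, Rps3a1, Rps6 and Rpsa. Of the 33 large subunit genes the 11 that did not were Rpl15, Rpl19, Rpl23, Rpl27, Rpl28, Rpl29, Rpl37, Rpl4, Rpl41, Rpl6 and Rpl8. The paralogs that did were Rpl37rt, Rps27l and Rps27rt. At least 2-fold lower were 35 members, against 3.44% of features. With both an unadjusted p under 0.05 and a 2-fold difference there were 35, Rpl3l among them, against 3.99% of features. Without 8W-Ctrl replicate 1 the median was −0.56 and the mean was lower for 63 members (49.3%), 19 members were lower at an unadjusted p under 0.05 (3.18%), 11 were at least 2-fold lower (2.36%), and both 12W-TTg arrays lay below the other 8W-Ctrl array for 55 (34.5%). Over the fits that leave out 1 array the median ran from −1.46 to −0.56. The 3 comparisons share groups, so their lists are not independent of each other.

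**Figure D2:**
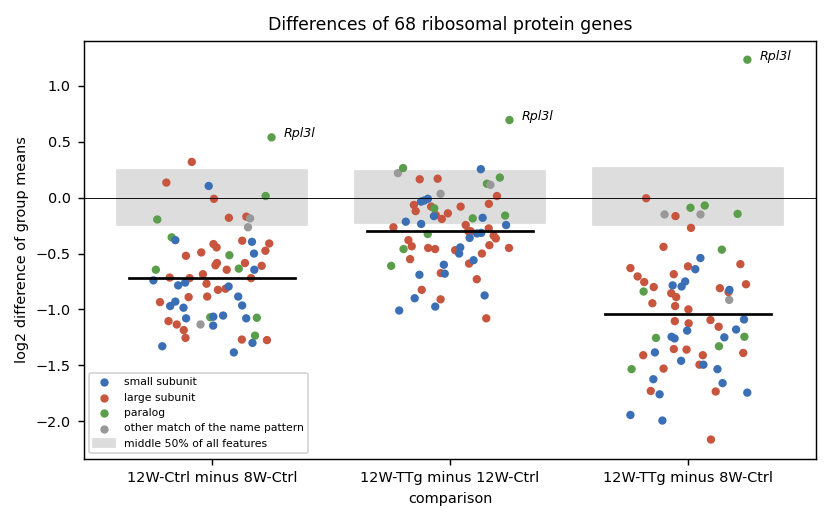
Each point is 1 of the 68 genes, coloured by class and plotted by its log2 difference of group means (vertical axis) in the 3 comparisons, with black lines at the medians (−0.72, −0.30 and −1.05) and grey bands over the middle 50% of all features. Most points lie below the grey bands in the comparisons with 8W-Ctrl, and Rpl3l lies at the top of all 3.

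Among small subunit genes, Rps14, whose loss is known from an acquired anaemia, had values of 14.02 and 13.10 in 8W-Ctrl, 12.92 and 12.23 in 12W-Ctrl, and 12.12 and 11.01 in 12W-TTg. The 3 groups did not overlap, and 12W-TTg was lower than 8W-Ctrl by a difference of −1.995 ± 0.48 (limma, adjusted p = 0.340, 0.0626 to 0.867 over the alternatives). Rps19, which is needed to mature the small subunit and is the gene most often mutated in Diamond-Blackfan anaemia, was at 10.10 and 8.97, then 8.64 and 8.49, then 7.59 and 7.59. Its replicates were identical to 2 decimals in 12W-TTg, its groups did not overlap either, and its difference from 8W-Ctrl was −1.95 ± 0.37 (limma, adjusted p = 0.340). Rps21 showed the same order with 14.82 and 13.46, 13.24 and 12.88, and 12.57 and 12.19 (−1.76 ± 0.44).

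Rps20 and Rps25, proteins of the small subunit's head, had the lowest differences of 12W-Ctrl from 8W-Ctrl. Rps20 was at 13.70 and 12.56 in 8W-Ctrl, 11.88 and 11.61 in 12W-Ctrl, and 11.53 and 11.24 in 12W-TTg. Its difference over time was −1.39 ± 0.39 (limma, adjusted p = 0.496), and −0.82 without 8W-Ctrl replicate 1. Rps25 was at 13.76 and 12.49, 11.90 and 11.69, and 11.63 and 11.63, so that both 3-month groups were close to each other and below 8W-Ctrl. Without 8W-Ctrl replicate 1 its difference over time was −0.70. Rps15, a protein near the decoding site, differed less between the 8W-Ctrl replicates. Its 8W-Ctrl values were 17.76 and 17.54, against 16.74 and 15.96 in 12W-Ctrl and 16.26 and 15.97 in 12W-TTg. The difference over time was −1.30 ± 0.31 (limma, adjusted p = 0.468) and −1.19 without 8W-Ctrl replicate 1, where it was the 1 member still at least 2-fold lower.

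Other small subunit genes differed in how far the replicates lay apart. Rps16 had the widest replicate distances of all members, with 14.41 and 12.68, 12.88 and 12.08, and 12.34 and 11.50. Rps23, which lies at the decoding centre, was at 18.72 and 18.08, 18.22 and 17.82, and 17.87 and 17.28. Rps6, the substrate of S6 kinase, was at 18.19 and 17.42, 17.61 and 17.21, and 17.07 and 17.26. In both, 12W-Ctrl replicate 1 lay between the 8W-Ctrl values, so the control groups overlapped. Rps9 was at 13.24 and 11.82, 11.65 and 11.84, and 10.68 and 11.06, with 12W-TTg below both control groups (−0.88 ± 0.45 from 12W-Ctrl). Rps28 was at 11.32 and 10.41, 11.05 and 10.89, and 10.42 and 9.72, and is the 1 small subunit gene whose 12W-TTg values overlapped those of 8W-Ctrl. Rpsa, also known as a laminin receptor precursor, was at 12.44 and 11.62, 11.30 and 11.17, and 11.43 and 11.55, so 12W-TTg lay slightly above 12W-Ctrl and below 8W-Ctrl.

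In the large subunit, Rpl39, a very small protein of the peptide exit tunnel, had the lowest difference of all 68 genes between 12W-TTg and 8W-Ctrl. It was at 13.56 and 12.62 in 8W-Ctrl, 12.00 and 11.67 in 12W-Ctrl, and 11.32 and 10.53 in 12W-TTg. The groups did not overlap in any comparison, and the differences were −1.26 ± 0.40 over time, −0.91 ± 0.40 from 12W-Ctrl to 12W-TTg and −2.17 ± 0.40 from 8W-Ctrl to 12W-TTg. The last was 4.48-fold, with an adjusted p of 0.340 in limma, 0.0582 with the replicate number as a block and up to 0.867 over the other alternatives. Without 8W-Ctrl replicate 1 it was −1.70 ± 0.41.

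Rpl35a, another gene of Diamond-Blackfan anaemia, was at 11.16 and 9.89, 9.50 and 9.18, and 8.83 and 8.75 (−1.74 ± 0.41 from 8W-Ctrl to 12W-TTg). Rpl36 was at 12.34 and 10.74, 10.34 and 10.20, and 9.96 and 9.66. Its difference over time was −1.27 ± 0.48 and −0.47 without 8W-Ctrl replicate 1, so that array made up most of it. For Rpl37a the values were 11.94 and 11.06, 10.21 and 10.24, and 10.59 and 10.20. Both 3-month groups of Rpl37a overlapped and lay below 8W-Ctrl, with a difference over time of −1.28 ± 0.33 (limma, adjusted p = 0.477). Rpl10a, a protein of the L1 stalk that releases spent tRNA, was at 16.45 and 15.56, 15.80 and 15.38, and 14.99 and 14.03. Its control groups overlapped, and 12W-TTg lay below both.

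Over time, Rpl4, Rpl29, Rpl28 and Rpl41 had the highest differences in the large subunit, close to 0 or above it. Rpl4, which lines the exit tunnel, had the closest replicates of all members, at 16.30 and 16.04, 16.26 and 16.06, and 16.03 and 15.98. Its difference from 8W-Ctrl to 12W-TTg was −0.17 ± 0.23. Rpl29 was at 14.28 and 13.60, 13.77 and 13.77, and 13.87 and 14, with a difference of −0.01 ± 0.28. Rpl28 was at 17.67 and 16.49, 17.71 and 17.09, and 16.65 and 16.97, and Rpl41, the smallest ribosomal protein, at 16.81 and 16.03, 16.75 and 16.36, and 16.19 and 15.46. For Rpl28 and Rpl41 12W-Ctrl replicate 1 lay close to 8W-Ctrl replicate 1, and the groups overlapped over time. From 12W-Ctrl to 12W-TTg both had lower groups that did not overlap, with differences of −0.59 for Rpl28 and −0.73 for Rpl41. Their differences over time, 0.32 and 0.14, were −0.27 and −0.26 without 8W-Ctrl replicate 2.

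The ribosomal stalk, whose P proteins recruit elongation factors, was measured by Rplp0 and Rplp1, and Rplp2 was not among the named features. Rplp0 was at 14.48 and 13.62, 13.01 and 13.22, and 12.88 and 13.22, a difference of −1.0 from 8W-Ctrl to 12W-TTg. Rplp1 was at 18.36 and 18.17, 18.25 and 17.92, and 17.80 and 17.47, a difference of −0.63. The 3-month groups overlapped in Rplp0 and did not in Rplp1.

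The paralogs ran in both directions. Rpl3l, the paralog of striated muscle, was at 11.12 and 11.20 in 8W-Ctrl, 10.96 and 12.44 in 12W-Ctrl, and 12.57 and 12.22 in 12W-TTg. Both 12W-TTg hearts were higher than both 8W-Ctrl hearts, as for 21.2% of all features, while 12W-Ctrl spanned both levels. Its difference from 8W-Ctrl to 12W-TTg was 1.24 ± 0.46, 2.35-fold higher (limma, adjusted p = 0.474, unadjusted p = 0.0302), and 1.195 ± 0.60 without 8W-Ctrl replicate 1. From 12W-Ctrl to 12W-TTg it was 0.70 ± 0.46, and −0.045 without 12W-Ctrl replicate 1. Rpl3, the gene it stands in for, was at 14.13 and 13.40, 13.18 and 12.57, and 12.47 and 12.28, and its groups did not overlap. Rpl3 had a difference of −1.39 from 8W-Ctrl to 12W-TTg, opposite in sign to that of Rpl3l.

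Rpl22 was at 14.92 and 14.28, 14.09 and 13.46, and 13.59 and 13.36, a difference of −1.13 from 8W-Ctrl to 12W-TTg. Its paralog Rpl22l1 was at 8.75 and 7.95, 8.02 and 7.39, and 7.82 and 7.95, and overlapped in all comparisons, with a difference of −0.47. Rps27l, a paralog known as a p53 target, was at 10.74 and 9.83, 9.28 and 8.82, and 9.06 and 8.85. It followed the subunit genes over time (−1.24 ± 0.35) and overlapped between the 3-month groups. Rps27rt (11.87 and 10.33, 10.12 and 9.93, 9.89 and 9.24) and Rpl37rt (12.22 and 10.96, 10.83 and 11.08, 10.23 and 10.46) had differences of −1.54 and −1.25 from 8W-Ctrl to 12W-TTg. Rpl36al was at 8.51 on 8W-Ctrl replicate 1 and at 6.12 to 6.94 on the others. Rps4l ranged from 5.30 to 7.20 and overlapped in all 3 comparisons. The differences from 8W-Ctrl to 12W-TTg were −0.07 for Rpl7l1, −0.15 for Rpl10l and −0.09 for the dim Rpl39l. Of the genes that match by name, Rps19bp1 was at 7.18 on 8W-Ctrl replicate 1 and at 5.36 to 6.35 elsewhere. Rps23rg1 ran from 4.19 to 4.70, and Rpl32l was at 9.59 on 8W-Ctrl replicate 1 and at 7.31 to 8.28 elsewhere.

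**Figure D3:**
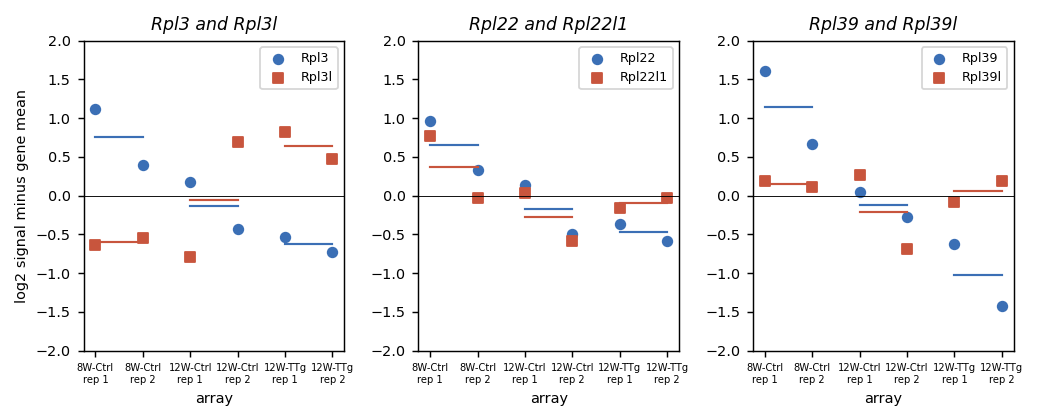
Points give the log2 signal minus the gene's own mean on each of the 6 arrays for 3 standard genes (circles) and their paralogs (squares), with short lines at the group means. Rpl3 and Rpl3l lie on opposite sides of 0 in 8W-Ctrl and 12W-TTg, while Rpl39l and Rpl22l1 stay nearer to 0 in 12W-TTg than Rpl39 and Rpl22 do.

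Other parts of the translation machinery were described from lists, in none of which a gene passed limma's adjusted threshold in any comparison. A first list held elongation factors and other genes with TOP-type mRNAs (13 of 15 measured). Its median difference was −0.36 over time, −0.37 from 12W-Ctrl to 12W-TTg and −0.69 from 8W-Ctrl to 12W-TTg. At an unadjusted p under 0.05 in limma, 0, 2 and 6 of the 13 were lower in these comparisons, against 4.09%, 4.11% and 5.41% of all features, and 0 were higher in each. Eef1b2, the exchange factor of elongation factor 1, was at 15.51 and 14.83, 14.90 and 14.57, and 14.18 and 13.90. Its groups did not overlap between 12W-TTg and either control, and the difference from 8W-Ctrl was −1.13 ± 0.30. Eef2, the translocase, was at 17.81 and 17.78, 18.05 and 17.97, and 17.79 and 17.86, a difference of 0.03 ± 0.22.

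Initiation factors (25 of 31 measured) had medians of −0.12 over time, −0.10 from 12W-Ctrl to 12W-TTg and −0.19 from 8W-Ctrl to 12W-TTg. Ribosome assembly factors (37 of 40) had medians of −0.03, −0.08 and −0.06, RNA polymerase I genes (13 of 17) 0.02, 0.02 and 0.02, and genes of mTORC1 and S6 kinase control (18 of 22) 0.23, 0.04 and 0.20. These medians lay nearer to those of all features than the ribosomal protein medians did, but they hide genes that differed in both directions. By limma's unadjusted p under 0.05, 4 of 13 RNA polymerase I genes were lower and 1 higher from 8W-Ctrl to 12W-TTg. Of all features, 5.41% and 4.3% were so. Over time, 6 of 37 assembly factors were higher and 3 lower at that p, against 3.91% and 4.09% of features. Among assembly factors, Rrp12, which acts in subunit export, was at 5.62 and 5.99 in 8W-Ctrl, 7.77 and 7.46 in 12W-Ctrl, and 6.26 and 6.46 in 12W-TTg. Its groups did not overlap, and the difference over time was 1.81 ± 0.26 (limma, adjusted p = 0.374). Nop10, a protein of the particles that modify ribosomal RNA, was at 16.49 and 15.58, 14.93 and 14.95, and 14.26 and 14.87. From 8W-Ctrl to 12W-TTg it had a difference of −1.47 ± 0.36, in the range of the ribosomal protein genes.

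The proteins of the mitochondrial ribosome (41 of 42 measured), a separate particle, had a median of −0.53 over time, 0.21 from 12W-Ctrl to 12W-TTg and −0.28 from 8W-Ctrl to 12W-TTg. Of the 41, 39 were lower in the first comparison, 35 were higher in the second, where 57 of the 68 cytosolic genes were lower, and 29 were lower in the third. Of all features, 48.8%, 48.3% and 47.3% were lower in these comparisons. Of the 41 genes, 26 were highest on 8W-Ctrl replicate 1 and 29 lowest on 12W-Ctrl replicate 1, against 4358 and 4143 of the 22206 features. In these counts a tie went to the first of the tied arrays, while the earlier shares of all features left ties out. On 12W-Ctrl replicate 1 the median deviation from the genes' own means was −0.57 for the mitochondrial and −0.049 for the cytosolic ribosomal genes.

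**Figure D4:**
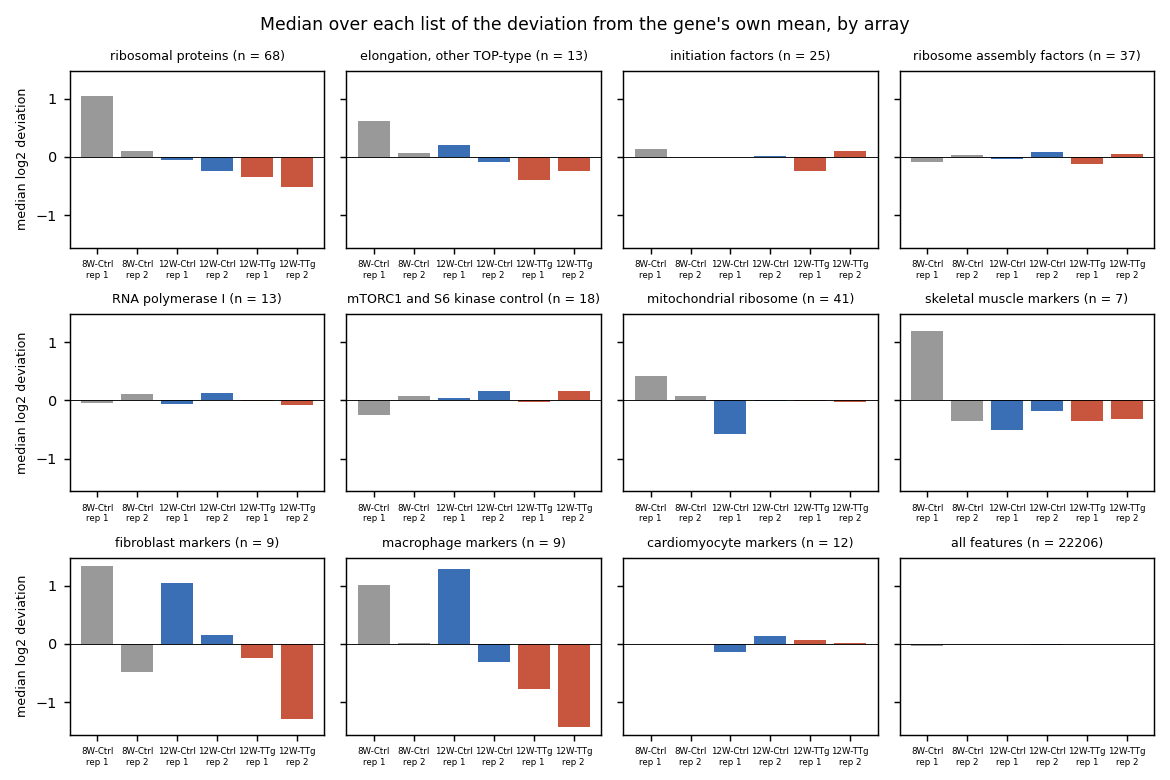
Bars give, for each list and array, the median over the list's genes of the log2 signal minus the gene's own mean, with grey for 8W-Ctrl, blue for 12W-Ctrl and red for 12W-TTg. The ribosomal protein bars run from 1.05 on 8W-Ctrl replicate 1 to −0.52 on 12W-TTg replicate 2, the skeletal muscle list is high on 8W-Ctrl replicate 1, and all features lie near 0.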

How the data were processed

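The table holds log2 values per array feature, made by the authors and deposited for the series. The submitters' processing notes name Transcriptome Analysis Console 4.0. Summary, background and normalization methods are not given in the sources used here, so the values were used as deposited. Symbols came from the platform annotation (19572 of 22206 features had 1 symbol, 2634 had none), and all 68 members matched RefSeq by gene ID. Where a symbol recurs, the feature with the highest mean was taken, though no member symbol recurred.

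Group means were estimated for all features from all 6 arrays in 1 linear model with limma 3.58.1 in R 4.3.3 (3 residual and 4.13 prior degrees of freedom), two-sided, with Benjamini-Hochberg adjustment over all features and a threshold of 0.05. With 2 arrays a side, the smallest p of an exact permutation test is 0.333. The fit was tested on simulated data.

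Members and lists were chosen with earlier results of these data known, so medians and counts are descriptions. Named genes are the paralogs and their relatives, the stalk genes and Rpsa, the highest and lowest differences, members at an unadjusted p under 0.05, and those with the widest and closest replicates. Rps6, Rps23, Rrp12, Nop10, Eef1b2, Eef2 and the marker Myh2 were chosen after their values were seen. Myc, Eif5a and Eif3e fell under none of these rules either.

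Labels do not say whether replicate numbers pair hearts across groups. Deviations of same-numbered arrays correlated at 0.133, 0.136 and 0.120, and a replicate block was an alternative. These values cannot show pairing, because any difference between hearts that same-numbered arrays happen to share would give them. Others were an intensity trend, a robust prior, quantile normalization, median centring, dropping dim features or features at 19 or more, 1-symbol features, the 2 groups alone, canonical proteins only, an unadjusted p with 2-fold, and leaving out each array.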

Additional observations from a re-analysis of the deposited data

How the results depend on the processing

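Counts of features past the threshold, mainly 1, 1 and 0 for 12W-TTg against 12W-Ctrl, 12W-Ctrl against 8W-Ctrl and 12W-TTg against 8W-Ctrl, depended on the settings. With the replicate block they were 11 in the first and 5 in the third. With the 2 groups alone the first was 2. The second was 0 with an intensity trend, with quantile normalization and without dim features, and the third was 1 with a robust prior and with features below 19 alone. An unadjusted p under 0.05 with a 2-fold minimum gave 666, 613 and 886 features and 1, 13 and 35 ribosomal protein genes. Every other alternative left the ribosomal protein calls at 0. Leaving out each array gave 0 to 2, 0 to 6 and 0 to 22 features.

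Ribosomal protein genes lower at an unadjusted p under 0.05 in limma, counted after the data had been seen, were 3, 23 and 42. Of all features, 4.11%, 4.09% and 5.41% were so. The first was 5 with a robust prior, 7 with the replicate block and 9 with the 2 groups alone, and the second was 14 with the 2 groups alone. With the replicate block the second was 33 and the third 48. Leaving out each array gave 0 to 9, 4 to 52 and 19 to 58. The medians stayed below 0 throughout, at −0.44 to −0.18, −1.17 to −0.27 and −1.46 to −0.56, and quantile normalization gave −0.29, −0.64 and −0.94. The block took no ribosomal protein gene past the adjusted threshold.

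Of 480 named values under alternatives, 474 kept their direction and 0 passed the threshold. From 12W-Ctrl to 12W-TTg, Rpl3l (−0.045 to 1.44) and Rpl32l (−0.27 to 0.71) reversed without 12W-Ctrl replicate 1. Over time, Rpl3l (−0.20 to 1.28) reversed without 12W-Ctrl replicate 2, Rpl28 (−0.27 to 0.91) without 8W-Ctrl replicate 2, and Rpl41 (−0.26 to 0.53) without that array and, at −0.06, without 12W-Ctrl replicate 1. The cause was not tested. Taking the mean of features for a repeated symbol gave no separate value. Where an array is left out, its partner's spread is taken from the other groups.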

Other observations

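Further genes of ribosome production and translation differed between hearts in ways that the lists' medians do not show. Myc, a transcription factor that drives ribosome production, was at 6.32 and 6.19 in 8W-Ctrl, 9.61 and 6.89 in 12W-Ctrl, and 6.16 and 6.24 in 12W-TTg, so 1 heart of 12W-Ctrl stood above the other 5. Eif5a, a factor that helps translation of proline-rich stretches, was at 15.60 and 15.18 in 8W-Ctrl, 16.31 and 16.12 in 12W-Ctrl, and 15.85 and 16.24 in 12W-TTg. Both 3-month groups of Eif5a lay above 8W-Ctrl, opposite to most ribosomal protein genes, without passing limma's adjusted threshold. Of all features, 18.3% lay above 8W-Ctrl without overlap in 12W-Ctrl and 21.2% in 12W-TTg. Eif3e, a subunit of the initiation complex that binds the small ribosomal subunit, was at 12.08 and 11.74, 11.40 and 10.90, and 10.57 and 11.11. It lay below 8W-Ctrl in both 3-month groups, as 17.4% of all features did in 12W-Ctrl and 18.9% in 12W-TTg.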
